A study of Mus musculus with 24 samples.

Results

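The genes described here are 9 that handle glucose entry and glycogen in muscle. Their choice was by name and not by a rule on their values, but earlier results of these data were known. They are the glucose transporter genes Slc2a1 and Slc2a4, the hexokinase genes Hk1 and Hk2, the glycogen synthesis genes Gys1 and Gbe1, the glycogen breakdown genes Pygm and Phka1, and the phosphatase-targeting gene Ppp1r3c. These are 9 of the 55416 genes counted, and all 9 were among the 16408 genes that passed the filter on low counts. RNA was sequenced from the gastrocnemius, a mixed calf muscle, of 24 mice of the strain labelled C56BL6J. Each sex gave 6 sham and 6 SMC mice, and all were wild type. SMC mice lived for 8 weeks in a small mouse cage, a low acrylic box that limits movement, whereas sham mice stayed ambulatory. The mice were bought at 8 weeks of age, and each library came from 1 mouse. All were fasted and anaesthetised with ketamine and xylazine before the muscle was taken.

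Glucose enters muscle fibres by facilitated transport. GLUT1, the Slc2a1 protein, sits in the surface membrane, while GLUT4, the Slc2a4 protein, is held in vesicles that insulin and contraction send to the surface. Hexokinase then traps the sugar as glucose 6-phosphate, which glycogen synthase (Gys1) and branching enzyme (Gbe1) build into glycogen. Glycogen phosphorylase (Pygm) takes glycogen apart again once phosphorylase kinase, of which Phka1 encodes a regulatory subunit, has switched it on. Ppp1r3c, also called PTG, brings protein phosphatase 1 to the glycogen particle, where it favours synthesis. The question the design poses for these genes was whether their transcripts differed between inactive and ambulatory mice in either sex.

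Total counts per mouse ranged from 23026627 to 36880413. The 7 skeletal muscle markers, which include Acta1, Ckm and Ttn, summed to between 138900 and 369500 CPM (read counts scaled to a common library total) in every library. Values in CPM below are scaled by TMM library sizes. A pair of libraries stood apart in fibre type. The 10 slow fibre markers summed to 91.3 CPM in male sham mouse 4 and 76.4 CPM in female sham mouse 7, against at least 714.9 CPM in each of the other 22 mice. Both are sham mice, so values without them are given beside the SMC estimates that they moved most. In bulk tissue, fewer fibres of a type and less RNA per fibre cannot be told apart.

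Per kilobase of exon, the 9 genes spanned more than 3 orders of magnitude in the order of their mean levels. Pygm stood at 2091 ± 412 CPM per kb (SD, n = 24), above 99.9% of tested genes that had a length. Phka1 followed at 149 ± 30.2, Ppp1r3c at 146 ± 109, Slc2a4 at 108 ± 9.63, Gys1 at 90.6 ± 11.2 and Hk2 at 66.2 ± 8.97 CPM per kb. Neighbours within that middle group overlapped in their ranges over mice, and Phka1 was above Ppp1r3c in only 15 of 24 mice. Lower down, Gbe1 stood at 10.2 ± 2.24, Slc2a1 at 2.44 ± 0.489 and Hk1 at 1.36 ± 0.152 CPM per kb. The steps from Pygm to Phka1, from Hk2 to Gbe1, from Gbe1 to Slc2a1 and from Slc2a1 to Hk1 held in 24 of 24 mice, with no overlap between the ranges.

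In 5 gene families, a single muscle form supplied nearly all of the message. Slc2a4 made up 91.3% ± 0.943 (SD, n = 24) of the summed per-kb level of 11 Slc2a genes, and Slc2a1 made up 2.06% ± 0.369. Hk2 made up 97.6% ± 0.469 of the summed level of Hk1, Hk2, Hk3 and Hkdc1, while Hk1 made up 2.05% ± 0.404. Gys1 held 99.9% ± 0.0707 of the glycogen synthase level, the liver form Gys2 reaching at most 14 counts in any library. Pygm held 99.9% ± 0.0301 of the level of 3 phosphorylases, and Phka1 held 98.3% ± 0.367 of the level of both alpha subunits of phosphorylase kinase. The glycogen-targeting subunits of protein phosphatase 1 were different, since 2 of 7 shared the level. Ppp1r3c made up between 24.4% and 82.9% of it in single mice and Ppp1r3a, the main striated muscle subunit, between 16.5% and 72.3%. The muscle isoforms thus dominated in all 4 groups, and the lowest group mean of the Slc2a4 share was 91.2%.

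No member passed the false discovery rate (FDR) threshold of 0.05 in any of 5 comparisons by edgeR's quasi-likelihood test over all 16408 genes. In males, SMC against sham called 0% of tested genes and 0 of 9 members, and 0 of 9 had an unadjusted p under 0.05 beside 11% of all genes (1805). In females the test called 0.341% of genes and 0 of 9 members, and 1 of 9 members had an unadjusted p under 0.05 beside 12.5% of all genes (2049). For the SMC response of males minus that of females, 0% of genes and 0 of 9 members were called, with 0 of 9 members and 5.13% of genes (841) at an unadjusted p under 0.05. Averaged over the sexes, SMC against sham called 2.36% of genes and 0 of 9 members, and 1 of 9 members had an unadjusted p under 0.05 beside 17.5% of genes. Males against females, averaged over housing, called 4.93% of genes and 0 of 9 members, and 0 of 9 members had an unadjusted p under 0.05 beside 19.3% of genes. The gene with the unadjusted p was Ppp1r3c in both cases. DESeq2 and limma with quality weights also called 0 of 9 members in each comparison.

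**Figure D1:**
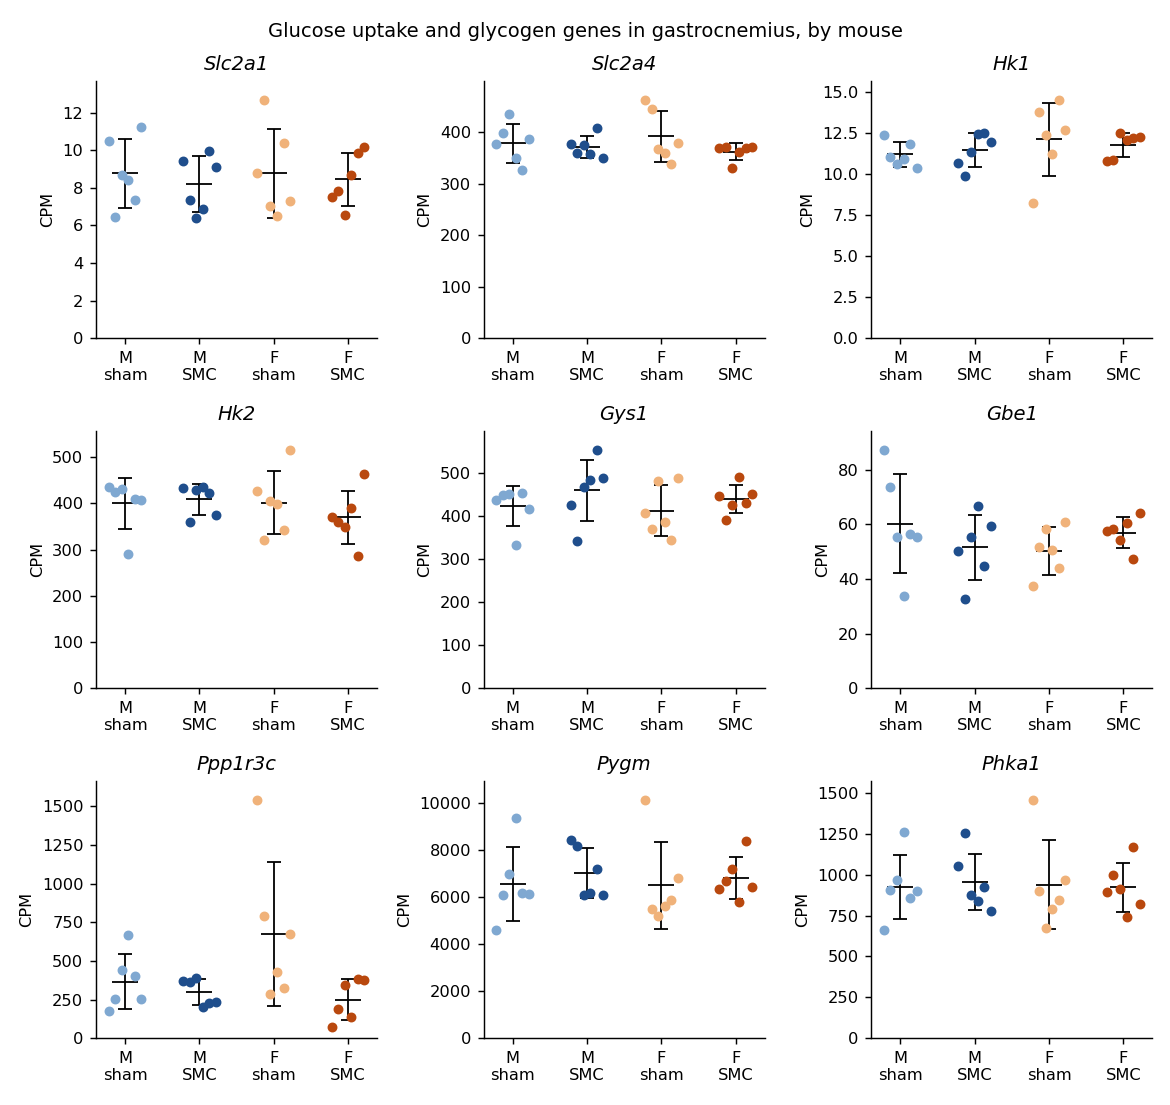
Each panel shows 1 gene, with CPM on the vertical axis from 0 and 1 point for each of 6 mice, males (M) on the left and females (F) on the right, sham before SMC; bars give mean ± SD. The groups overlap in all 9 panels, and Ppp1r3c has the widest spread, from 73.5 CPM in a female SMC mouse to 1539 CPM in a female sham mouse.

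The median log2 fold change of the 9 members, SMC against sham, was 0.032 in males and -0.046 in females, beside -0.0044 and -0.011 over all tested genes. Apart from Ppp1r3c, the estimates lay between -0.23 and 0.12 in males and between -0.12 and 0.18 in females. Each of those 16 intervals included 0. The widest were those of Gbe1, from -0.59 to 0.13 in males and from -0.18 to 0.54 in females.

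**Figure D2:**
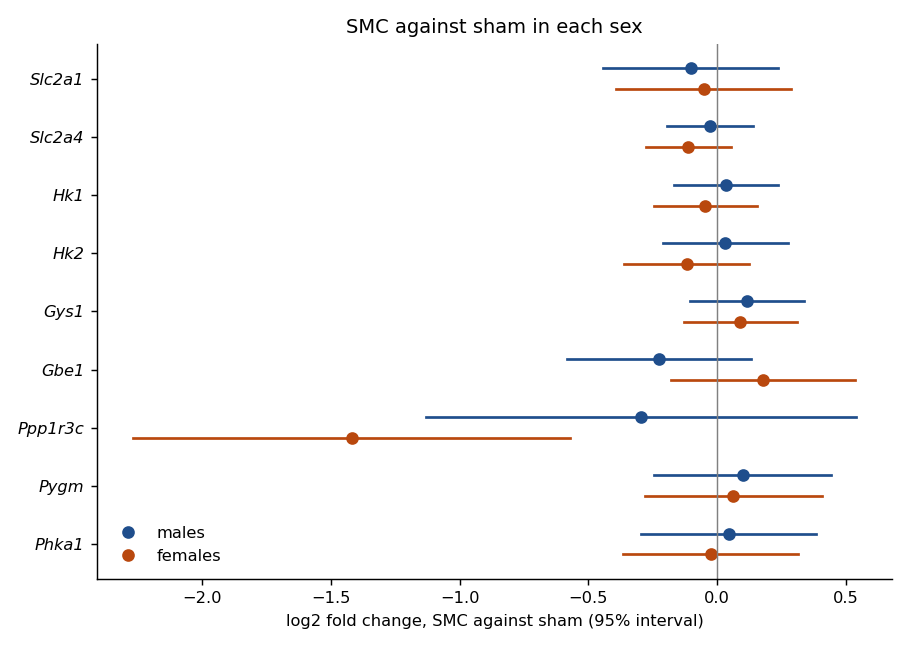
Log2 fold change of SMC against sham (horizontal axis) with its 95% interval from the edgeR fit, for each gene in males (blue) and females (orange). Of 18 intervals, only that of Ppp1r3c in females, from -2.27 to -0.57, leaves out 0.

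Slc2a4 (ENSMUSG00000018566, chromosome 11) was the least variable member, with a pooled SD within groups of 0.126 on the log2 scale. In male sham mice it ranged from 326.1 to 434.6 CPM with a median of 381.3, and in male SMC mice from 350.5 to 408.9 with a median of 367.3. All 6 male SMC mice fell inside the range of the male sham mice. In females it ranged from 338.1 to 462.2 CPM in sham (median 373.1) and from 330.5 to 371.4 in SMC (median 369.7). Every female SMC mouse was below the female sham median, yet 5 of 6 stayed inside the sham range. The log2 fold change was -0.027 ± 0.080 (SE) in males, with a 95% interval from -0.19 to 0.14 (edgeR FDR = 0.943). It was -0.11 ± 0.080 in females, from -0.28 to 0.053 (edgeR FDR = 0.617). Averaged over the sexes the difference was -0.070, from -0.19 to 0.047 (edgeR FDR = 0.566), a fold change of 0.953 with an interval from 0.878 to 1.03. Scaling by library totals gave -0.21 (edgeR FDR = 0.0775), under which the median of all genes was -0.14. Without female sham mouse 7 the female estimate was -0.055, and without male sham mouse 4 the male one was -0.059.

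Slc2a1 (ENSMUSG00000028645, chromosome 4), the transporter found in most cell types, was low throughout, between 6.40 and 12.7 CPM and 140 to 399 counts per mouse. The group means were 8.78 ± 1.83 CPM (SD, n = 6) in male sham and 8.19 ± 1.49 in male SMC, then 8.78 ± 2.38 in female sham and 8.45 ± 1.41 in female SMC. These differ by less than the spread between mice, with log2 fold changes of -0.10 ± 0.16 (SE) in males and -0.052 ± 0.16 in females (edgeR FDR = 0.88 and 0.937).

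Hk2 (ENSMUSG00000000628, chromosome 6) encodes the insulin-responsive hexokinase of muscle. Male sham mice ranged from 289.3 to 436.3 CPM with a median of 416.7, and male SMC mice from 358.7 to 434.6 with a median of 425.9. Female sham mice ranged from 321.7 to 514.8 CPM with a median of 401.7, and female SMC mice from 287.0 to 462.7 with a median of 365.7. The lowest male value was that of sham mouse 4, the other 5 male sham mice lying between 407.5 and 436.3 CPM. SMC minus sham was 0.032 ± 0.12 (SE, log2) in males (edgeR FDR = 0.955) and -0.12 ± 0.12 in females (edgeR FDR = 0.748). Without male sham mouse 4, the male estimate turned to -0.055.

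Hk1 (ENSMUSG00000037012, chromosome 10), the widely expressed form bound to mitochondria, was steady at 8.24 to 14.5 CPM. Its group means were 11.2 ± 0.769 CPM (SD, n = 6) in male sham, 11.5 ± 1.04 in male SMC, 12.1 ± 2.22 in female sham and 11.8 ± 0.737 in female SMC. The lowest value of all was in female sham mouse 7, the library with the least slow fibre RNA, and the log2 fold changes were 0.033 ± 0.098 (SE) in males and -0.046 ± 0.098 in females (edgeR FDR = 0.943 and 0.895). Without that mouse the female value was -0.13.

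Gys1 (ENSMUSG00000003865, chromosome 7), muscle glycogen synthase, had the highest estimate of the members in males. Male sham mice ranged from 332.6 to 453.4 CPM with a median of 443.6, and male SMC mice from 341.0 to 552.7 with a median of 475.4. Female sham mice ranged from 343.7 to 488.1 CPM with a median of 396.3, and female SMC mice from 391.3 to 490.7 with a median of 438.4. In males 4 of 6 SMC mice lay above the range of the sham mice, and in females 1 of 6 did. Log2 fold changes were 0.12 ± 0.11 (SE) in males, 0.091 ± 0.11 in females and 0.10 ± 0.076 averaged over the sexes (edgeR FDR = 0.753, 0.798 and 0.512). Without male sham mouse 4 the male value was 0.048. With library totals in place of TMM scaling, the averaged value was -0.025. Exons of Ruvbl2 on the opposite strand overlap Gys1, and antisense genes overlap Slc2a1 (Gm12868) and Hk1 (Hk1os), so reads of these partners could be told apart only if strand was used in counting, which is not given in the sources used here.

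Gbe1 (ENSMUSG00000022707, chromosome 16), which adds the branches that make glycogen compact and soluble, had the lowest estimate in males and the highest in females among the members other than Ppp1r3c. Male sham mice ranged from 33.9 to 87.1 CPM with a median of 55.9, and male SMC mice from 32.7 to 66.8 with a median of 52.8. Female sham mice ranged from 37.2 to 60.8 CPM with a median of 51.0, and female SMC mice from 47.4 to 64.2 with a median of 57.7. The groups overlapped in both sexes. For SMC the log2 fold change was -0.23 ± 0.17 (SE) in males and 0.18 ± 0.17 in females (edgeR FDR = 0.694 and 0.743). The difference between the sexes was -0.40, with an interval from -0.91 to 0.10 and an unadjusted p of 0.112 (edgeR FDR = 0.956). Single mice moved these values. In males the estimate was -0.36 without sham mouse 4 and -0.098 without sham mouse 1, and in females it was 0.11 without sham mouse 7. The difference between the sexes was -0.54 without male sham mouse 4, -0.27 without male sham mouse 1 and -0.46 without both low-slow-fibre libraries.

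Pygm (ENSMUSG00000032648, chromosome 19), muscle glycogen phosphorylase and the gene mutated in McArdle disease, was the 18th most abundant tested transcript per kb. Male sham mice ranged from 4591 to 9387 CPM with a median of 6155, and male SMC mice from 6086 to 8435 with a median of 6688. Female sham mice ranged from 5203 to 10120 CPM with a median of 5748, and female SMC mice from 5795 to 8385 with a median of 6556. Both maxima among the sham mice belonged to male sham mouse 4 and female sham mouse 7. The other sham mice reached at most 6999 CPM in males and 6798 in females. In log2 units, SMC against sham was 0.099 ± 0.17 (SE) in males and 0.063 ± 0.17 in females (edgeR FDR = 0.888 and 0.917). Without female sham mouse 7 the female estimate was 0.24, and without male sham mouse 4 the male one was 0.22, neither of them called. Without male sham mouse 1 the male estimate was 0.012.

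Phka1 (ENSMUSG00000034055, chromosome X) is X-linked, and its range in males overlapped that in females. Male sham mice ranged from 659.3 to 1258 CPM with a median of 904.2, and male SMC mice from 779.5 to 1252 with a median of 900.0. Female sham mice ranged from 675.3 to 1453 CPM with a median of 870.5, and female SMC mice from 739.0 to 1168 with a median of 902.4. As for Pygm, male sham mouse 4 and female sham mouse 7 gave the highest sham values. The log2 fold change for SMC was 0.045 ± 0.16 (SE) in males and -0.024 ± 0.16 in females (edgeR FDR = 0.956 and 0.974). Without male sham mouse 4 it was 0.14 in males, and without female sham mouse 7 it was 0.15 in females. Males against females differed by 0.015, with an interval from -0.22 to 0.26 (edgeR FDR = 0.965). The ratio of synthase to phosphorylase message differed between groups by less than its SD, the per-kb level of Gys1 being 4.60% ± 1.30 (SD, n = 6) of that of Pygm in male sham, 4.52% ± 1.12 in male SMC, 4.47% ± 1.15 in female sham and 4.41% ± 0.797 in female SMC.

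Ppp1r3c (ENSMUSG00000067279, chromosome 19) varied more than any other member, with a pooled SD within groups of 0.781 on the log2 scale, beside 0.126 to 0.33 for the other 8. The highest mouse was 20.9-fold above the lowest. In female sham mice the values were 284.7, 326.1, 430.8, 672.6, 791.3 and 1539 CPM, the last in mouse 7. In female SMC mice they were 73.5, 135.3, 189.9, 347.6, 379.4 and 383.2 CPM. Thus 3 of 6 female SMC mice were below every female sham mouse, all 6 were below the female sham median of 551.7, and the ranges overlapped. Male sham mice ranged from 178.5 to 670.3 CPM with a median of 329.0, and male SMC mice from 202.6 to 393.5 with a median of 300.5, so that all 6 male SMC mice lay inside the sham range.

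In females the log2 fold change of Ppp1r3c was -1.42 ± 0.41 (SE), a level 0.373 times that of sham with an interval from 0.207 to 0.673. Its unadjusted p was 0.00207, and it was not called over all genes (edgeR FDR = 0.115). DESeq2 gave an FDR of 0.0615. Scaling by library totals gave an edgeR FDR of 0.0461, under which it was called. Without female sham mouse 7 the log2 fold change was -0.99 (edgeR FDR = 0.22), and over all 24 fits that left out 1 library it stayed between -1.58 and -0.99. In males it was -0.29 ± 0.41 (SE) and came to -0.047 without male sham mouse 4 (edgeR FDR = 0.854 with it and 0.98 at most over the fits that left out 1 library). The response of males minus that of females was 1.13, with an interval from -0.055 to 2.31 and an unadjusted p of 0.0608 (edgeR FDR = 0.955), so a difference between the sexes was not shown. It was 0.69 without female sham mouse 7 and 1.37 without male sham mouse 4. Averaged over the sexes the log2 fold change was -0.86 ± 0.29 (edgeR FDR = 0.11), and without both low-slow-fibre libraries it was -0.52 (edgeR FDR = 0.251).

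As a share of the 7 glycogen-targeting subunits per kb, Ppp1r3c made up 68.3% ± 11.1 (SD, n = 6) in female sham and 47.1% ± 15.2 in female SMC mice. The shares were 55.1% ± 12.3 in male sham and 53.4% ± 5.41 in male SMC mice. Ppp1r3a itself had a log2 fold change of -0.046 ± 0.10 (SE) in females and -0.098 ± 0.10 in males. The summed slow fibre markers were higher in SMC mice by their medians. By edgeR, 0 of 10 were called in any comparison, beside at most 4.93% of all genes. Medians of the sum were 2196 CPM in sham and 3127 CPM in SMC females, and 1697 and 2280 CPM in the males. Each sham median includes a low-slow-fibre library, which lowers it. Without these, female sham mice ranged from 1375 to 3215 CPM, beside 1537 to 4594 in female SMC mice. Male sham mice then ranged from 1252 to 2491 CPM, beside 714.9 to 3257 in male SMC mice. Within groups, Ppp1r3c had r = -0.271 and rho = -0.293 with this sum over the 22 mice without male sham 4 and female sham 7 (permutation adjusted p = 0.33 and 0.26, over 18 relations), and r = -0.593 over all 24.

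Across mice, Pygm and Phka1 moved together and opposite to Gbe1. Each gene's log2 CPM was centred on its group mean, and correlations were taken over the 22 mice without male sham 4 and female sham 7, with permutation tests within groups and adjustment over 36 pairs. Pygm and Phka1 had r = 0.893 and rho = 0.862 (permutation adjusted p = 0.00036 and 0.00072), and r = 0.848 after the 2 mice farthest from the median of Pygm were left out. Gbe1 ran the other way, with r = -0.659 and rho = -0.632 against Pygm (permutation adjusted p = 0.026 and 0.04), and r = -0.695 and rho = -0.586 against Phka1 (permutation adjusted p = 0.017 and 0.046). Leaving out the farthest mice moved these to -0.551 and -0.510. Hk2 and Gbe1 were positively related at r = 0.534 and rho = 0.590 (permutation adjusted p = 0.015 and 0.04), with r = 0.480 without the farthest mice. These 4 of 36 pairs passed by both coefficients, and Slc2a4 was in none of them. By rho alone, Pygm and Ppp1r3c passed as well (r = 0.561, rho = 0.591, permutation adjusted p = 0.054 and 0.04). So did Phka1 and Ppp1r3c (r = 0.529, rho = 0.580, permutation adjusted p = 0.085 and 0.046) and Hk2 and Gys1 (r = 0.566, rho = 0.626, permutation adjusted p = 0.085 and 0.046). With all 24 mice, r was 0.943 for Pygm and Phka1 and -0.782 for Pygm and Gbe1. All values share a library and its scaling, and genes of a library are not independent.

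**Figure D3:**
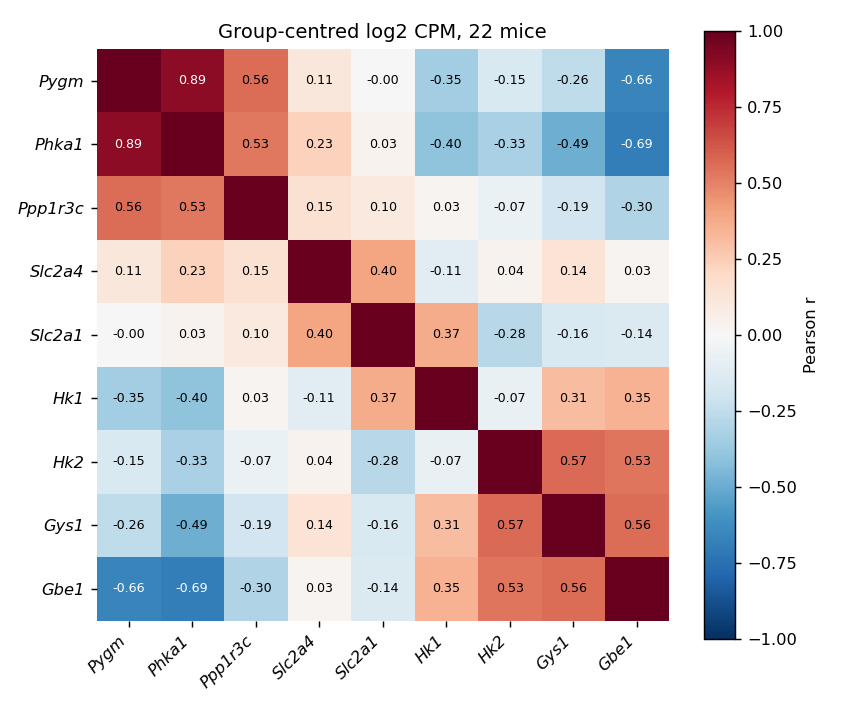
Pearson r between each pair of the 9 genes over 22 mice, from log2 CPM centred on each group's mean (red positive, blue negative; the diagonal is 1). Pygm and Phka1 form a block at 0.89, Gbe1 is negative against both, and Slc2a1 and Slc2a4 are weakly related to the rest.

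Fibre type markers were compared with the members in the same way. The summed slow fibre markers, which include the slow myosin gene Myh7, had r = -0.804 and rho = -0.809 with Phka1 over 22 mice (permutation adjusted p = 0.00081 and 0.0009, over 18 relations). Against Pygm they had r = -0.638 and rho = -0.631 (permutation adjusted p = 0.011 and 0.017). Positive values were found for Gys1 (r = 0.704, rho = 0.757), Gbe1 (r = 0.683, rho = 0.657) and Hk2 (r = 0.585, rho = 0.572), with permutation adjusted p of r of 0.0059, 0.0071 and 0.011 and of rho of 0.002, 0.0075 and 0.033. After the 2 farthest mice were left out, r was -0.690 for Phka1, -0.510 for Pygm, 0.616 for Gys1, 0.495 for Gbe1 and 0.435 for Hk2. Thus, within groups of these 22 mice, more slow fibre RNA went with less Pygm and Phka1 message and more Gys1, Gbe1 and Hk2 message. Over all 24 mice, r was -0.865 for Phka1, -0.860 for Pygm, 0.536 for Gys1, 0.771 for Gbe1 and 0.439 for Hk2. Over the 22 mice, Hk1 had r = 0.394 and rho = 0.390 and did not pass (permutation adjusted p = 0.18 and 0.16). Slc2a4 had r = -0.231 and rho = -0.345 (permutation adjusted p = 0.37 and 0.17).

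Against the summed fast fibre markers, Pygm reached r = 0.935 and rho = 0.948 (permutation adjusted p = 0.00018 for both, from an unadjusted p of 1e-05 that is the smallest 100000 resamples can give). Phka1 had r = 0.780 and rho = 0.784 (permutation adjusted p = 0.0013 and 0.0016) and Gbe1 r = -0.551 and rho = -0.513 (permutation adjusted p = 0.027 and 0.047). Without the farthest mice these were 0.909, 0.683 and -0.437. Ppp1r3c had r = 0.461 and rho = 0.512 (permutation adjusted p = 0.082 and 0.047), so only rho passed, and r was 0.338 without the farthest mice.

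**Figure D4:**
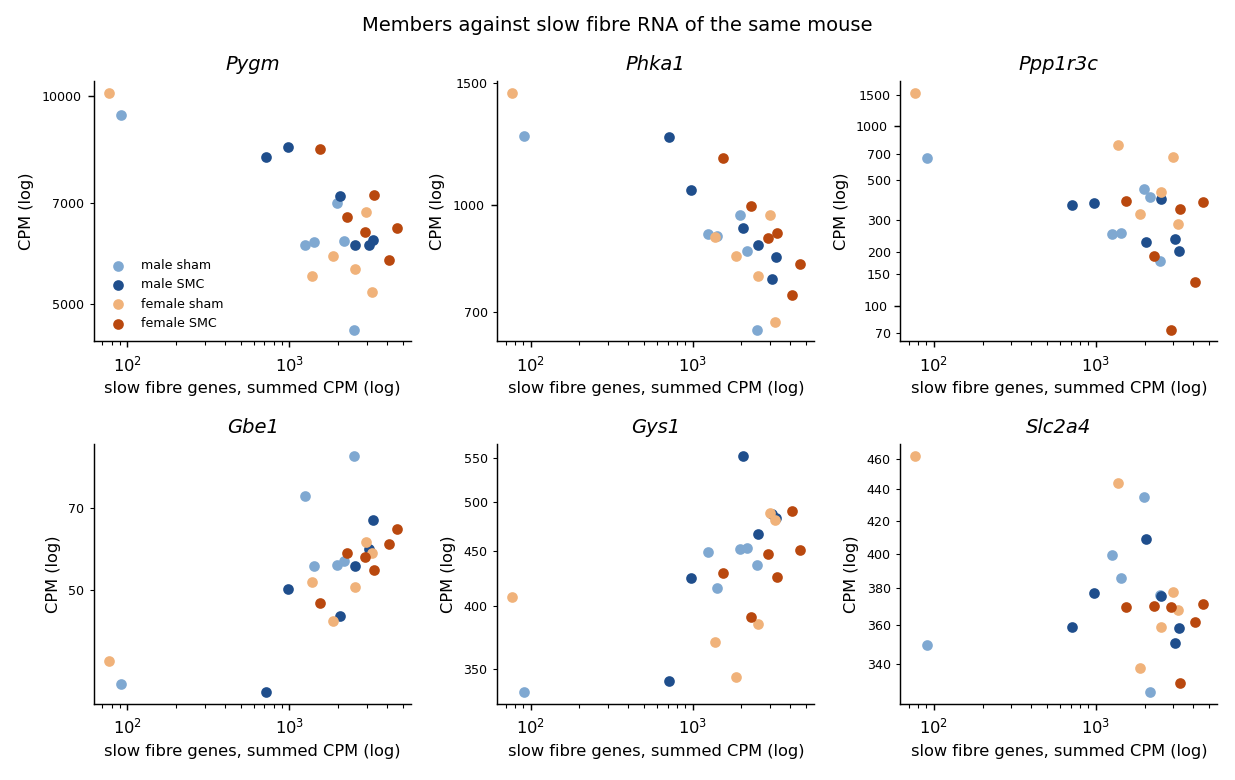
Each point is 1 mouse, with the summed CPM of 10 slow fibre markers on the horizontal axis and the gene's CPM on the vertical axis, both logarithmic; colours give the 4 groups. Male sham mouse 4 (91.3 CPM) and female sham mouse 7 (76.4 CPM) lie far to the left, with high Pygm, Phka1 and Ppp1r3c and low Gbe1.

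In those libraries some of the members stood at the ends of their groups. Pygm, Phka1 and Ppp1r3c were the highest of 6 and Gbe1 the lowest of 6 in both. For example, Gbe1 was 33.9 CPM in male sham mouse 4 against 55.2 to 87.1 in the other 5, and 37.2 CPM in female sham mouse 7 against 43.9 to 60.8. Hk2 and Gys1 were lowest in male sham mouse 4 but inside the range of the group in female sham mouse 7. Hk1 was the lowest of 6 in female sham mouse 7 and inside the range in male sham mouse 4. Slc2a4 was the highest of 6 in female sham mouse 7 and inside the range in male sham mouse 4. Slc2a1 was inside the range in both.

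The bases before the starts of Pygm and Phka1 are shown, with those of Ppp1r3c, the most variable member. They come from the RefSeq promoter table for GRCm38.p6, read on the gene's strand and ended before the first annotated base of the gene. Capitals mark the letters CANNTG, the E-box read by myogenic and other helix-loop-helix factors, which is the same on both strands.
Pygm, chr19:6384158-6384398, plus strand: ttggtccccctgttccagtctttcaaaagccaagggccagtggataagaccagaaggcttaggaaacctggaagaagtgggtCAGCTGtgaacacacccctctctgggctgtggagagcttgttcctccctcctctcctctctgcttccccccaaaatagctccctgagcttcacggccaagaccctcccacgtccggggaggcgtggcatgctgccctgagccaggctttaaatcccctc
Phka1, chrX:102644247-102644496, minus strand: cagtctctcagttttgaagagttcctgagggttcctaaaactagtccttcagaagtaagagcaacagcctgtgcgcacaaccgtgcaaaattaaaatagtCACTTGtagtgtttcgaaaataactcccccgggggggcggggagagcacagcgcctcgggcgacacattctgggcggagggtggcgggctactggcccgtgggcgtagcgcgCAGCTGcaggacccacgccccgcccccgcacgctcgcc
Ppp1r3c, chr19:36736654-36736854, minus strand: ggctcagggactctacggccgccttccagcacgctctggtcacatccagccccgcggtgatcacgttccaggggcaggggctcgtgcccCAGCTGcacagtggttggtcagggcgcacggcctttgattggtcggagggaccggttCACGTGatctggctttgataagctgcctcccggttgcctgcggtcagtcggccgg
The stretches shown for Phka1 and Ppp1r3c hold 2 matches each and that for Pygm holds 1. In the full 250 bases before the start that the table gives, each of the 3 genes has 2, and 66.2% of all 32851 promoters hold CANNTG there. The table held entries for 8 of the 9 members, with 2 for Hk1, and 7 of these 9 windows had a match. The E-box form CACGTG was found in the Ppp1r3c window alone, beside 6.02% of all promoters. The letters ACGTG, the core of the hypoxia element, which also lies inside CACGTG, were found on either strand in the windows of Slc2a1, Hk2, Pygm and Ppp1r3c, beside 16.6% of all promoters. None of the 9 windows held TGACGTCA or TATAAA, which 1.55% and 12.4% of all promoters held. A match is a description of the letters and not a binding site, and its part in how the genes moved across mice was not tested.

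For each member, the gene whose group-centred log2 CPM was most like it was sought among the other 16399 tested genes, over 24 mice. For Pygm this was Mybpc2, the fast form of myosin-binding protein C, at r = 0.98, and for Phka1 it was Rasd2, a small GTPase, at r = 0.945. Gbe1 was nearest to Lrrn1 (r = 0.926), Gys1 to the coenzyme Q methyltransferase gene Coq5 (r = 0.932), Hk2 to the prohibitin gene Phb (r = 0.886) and Slc2a4 to the complex III assembly gene Uqcc2 (r = 0.846). Hk1 was nearest to the junctional adhesion gene F11r (r = 0.886), and Slc2a1 to L1cam, a neural cell adhesion gene (r = 0.741). These are maxima of a search and carry no test. Without the 2 low-slow-fibre libraries, Mybpc2, Rasd2 and L1cam stayed nearest to their member, as did Zbtb16 to Ppp1r3c, and the nearest genes of the other 5 members changed.

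Zbtb16, a zinc finger transcription factor gene also called PLZF, was the gene nearest to Ppp1r3c at r = 0.921 over 24 mice and r = 0.941 over 22. Its levels were 386.4 ± 97.7 CPM (SD, n = 6) in female sham and 238.1 ± 69.5 in female SMC mice, and 269.5 ± 82.4 and 243.6 ± 24.2 in males. The female SMC mouse with the lowest Ppp1r3c, at 73.5 CPM, also had the lowest Zbtb16, at 124.0 CPM. The log2 fold change of Zbtb16 was -0.70 ± 0.20 (SE) in females and -0.14 ± 0.20 in males (edgeR FDR = 0.113 and 0.853), and it too was not called.

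**Figure D5:**
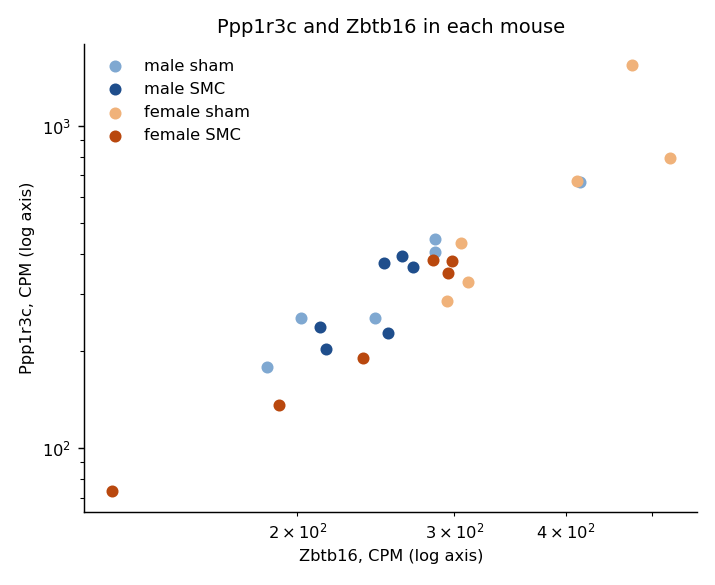
Ppp1r3c (vertical axis) against Zbtb16 (horizontal axis) in CPM, both on logarithmic axes, with 1 point per mouse coloured by group. The points rise along 1 line from the female SMC mouse at 124.0 and 73.5 CPM to female sham mice above 400 CPM of Zbtb16.

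The wider pathway was described with lists of the other genes around each step. Among the other glucose transporter genes, 6 of 9 were tested. For SMC, 0 were called in males, in females or on average, beside 0%, 0.341% and 2.36% of all genes. Slc2a9 and Slc2a12 had the highest and lowest averaged log2 fold changes of SMC against sham, 0.22 and -0.045. Slc2a3, the high-affinity GLUT3 known from neurons and blood cells, was higher in males, at 7.76 ± 4.89 CPM (SD, n = 12) against 2.85 ± 0.873 in females. Its log2 difference was 1.44 (edgeR FDR = 0.000995), and this 1 of 6 tested genes stands beside 4.93% of all genes called between the sexes. In the same comparison 7 of 7 red blood cell markers (median 0.40) and 6 of 7 macrophage markers (median 0.070) were above 0 and 7 of 7 nerve and Schwann cell markers (median -0.39) below it, with 0 called in each list. Red blood cell markers summed to 176.2 to 1588 CPM in male sham, 267.6 to 1218 in male SMC, 75.2 to 1853 in female sham and 256.6 to 947.8 in female SMC mice. The part of these cells in the level of Slc2a3 was not tested.

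Of 15 genes of GLUT4 vesicle traffic, all tested, 1 was called for SMC averaged over the sexes, beside 2.36% of all genes, and 0 in the other 4 comparisons. Lnpep, the aminopeptidase IRAP that travels in GLUT4 vesicles, was lower in SMC mice, averaged over the sexes (edgeR FDR = 0.0362), at -0.21 ± 0.054 (SE) in log2 units. CPM levels of Lnpep were 225.0 ± 30.9 CPM (SD, n = 6) in male sham and 191.7 ± 9.60 in male SMC, and 223.7 ± 9.02 in female sham and 195.4 ± 14.9 in female SMC mice. It was called in 13 of the 24 fits that left out 1 library, with values between -0.24 and -0.18. Tbc1d1, a Rab GTPase-activating protein that holds GLUT4 vesicles inside the cell, had the lowest averaged value in the list at -0.57 ± 0.19 and was not called by edgeR (FDR = 0.102). DESeq2 called it (FDR = 0.0453), as did edgeR with library totals (-0.68, FDR = 0.0173), and without the 2 low-slow-fibre libraries it was -0.29 by edgeR. Trarg1, a GLUT4 vesicle protein known from fat, had the highest averaged value at 0.36 (edgeR FDR = 0.505), with -0.24 in males and 0.96 in females. Adipocyte markers lay on the same sides of 0, with 0 called for SMC, 6 of 7 being below 0 in males (median -0.24) and 7 of 7 above 0 in females (median 0.79). Their sum ranged from 69.0 to 171.2 CPM in male sham, 79.1 to 102.4 in male SMC, 72.1 to 165.7 in female sham and 86.2 to 297.6 in female SMC mice. The part of fat cells in the value of Trarg1 was not tested.

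Among 6 tested genes of glucose phosphorylation and UDP-glucose supply, 0 were called in any comparison, beside at most 4.93% of all genes. Averaged values ran from -0.17 for Ugp2, the enzyme that makes UDP-glucose, to 0.14 for Gpi1. Of the other glycogen synthesis genes, 4 were tested and 0 were called for SMC, beside 2.36% of all genes on average. The averaged values ran from -0.087 for Nhlrc1 to 0.053 for the glycogenin gene Gyg. Stbd1, which tethers glycogen to membranes, was lower in males, at 18.4 ± 2.54 CPM (SD, n = 12) against 26.7 ± 4.52 in females, a log2 difference of -0.54 (edgeR FDR = 0.000563), 1 of 4 genes beside the 4.93% of all genes. All 8 other glycogen breakdown genes were tested and 0 were called in any comparison, beside at most 4.93% of all genes. Their averaged values ran from -0.044 for Gaa to 0.16 for the phosphorylase kinase subunit Phkg2. With so few genes, counts of 0 in these lists lie near the shares over all genes.

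Among 12 tested phosphatase and synthase kinase genes, 0 were called for SMC, beside 2.36% of all genes on average, and 2 between the sexes, beside 4.93%. Ppp1r3d, another glycogen-targeting subunit, was lower in males, at 4.34 ± 0.745 CPM (SD, n = 12) against 6.40 ± 1.39 in females, a log2 difference of -0.57 (edgeR FDR = 0.00142). Ppp1r1a, the phosphatase inhibitor 1 gene, was lower in males by the same test, at 19.4 ± 3.25 against 29.1 ± 5.19 CPM, a difference of -0.58 (edgeR FDR = 0.000567). The averaged SMC values in this list ran from -0.17 for Ppp1r3f to 0.35 for Ppp1r3b. Of 7 subunits of AMPK, the energy-sensing kinase, 0 were called in any comparison, beside at most 4.93% of all genes. All 7 averaged values were above 0, with a median of 0.075 beside -0.0089 over all tested genes. They ran from 0.024 ± 0.062 (SE) for Prkaa1 to 0.49 ± 0.16 for Prkag3, the subunit of fast muscle (edgeR FDR = 0.109 for Prkag3). Prkag2, named outside the rule for list genes, was 0.36 in males and -0.26 in females (edgeR FDR = 0.333 and 0.48). Its response in males minus that in females was 0.62 and was not called (edgeR FDR = 0.926), so a difference between the sexes was not shown. Prkaa1 was below 0 with library totals or without the 2 low-slow-fibre libraries.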

How the data were processed

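Gastrocnemius RNA of 24 mice was analysed from raw counts per gene. The authors extracted RNA with a Direct-zol kit and made directional libraries after ribosomal RNA depletion, and per the submitters' processing notes cutadapt 1.16, STAR 2.7.9a, featureCounts 1.6, DESeq2 1.34.0 and the build GRCm39 (mm39) were used. The deposited counts are whole reads per Ensembl gene, not normalized, and the annotation release and strand setting are not given in the sources used here.

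Samples were grouped by sex and treatment in their titles. The 9 members and all gene lists were chosen with earlier results of these data known. Genes kept by filterByExpr (16408) were scaled by TMM and fitted with 1 mean per group in edgeR 4.0.16 (R 4.3.3, quasi-likelihood, two-sided, Benjamini-Hochberg FDR under 0.05). The 5 contrasts compared SMC with sham within each sex, the response of males with that of females, SMC with sham averaged over sexes, and males with females. Log2 CPM used a prior count of 2. Since libraries are separate mice, p-values measure the spread between mice. Total counts of 23026627 to 36880413 put at least 140 reads on every member in every mouse. In simulated counts, the comparison in males called 182 of 200 genes changed 2-fold, of 16215 fitted. The changed genes were drawn from those with higher mean counts and were changed in both sexes. Differences in fibre type shared by the genes of a library were not simulated. The count is over many genes and is not the power for a member. The SE of the members in males ran from 0.080 for Slc2a4 to 0.41 for Ppp1r3c.

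Levels per kb used exon lengths of GENCODE M21 (GRCm38), matched by identifier, and symbols were found for 52083 of 55416 identifiers. Promoters were read from a RefSeq table of GRCm38.p6. Named genes were the 9 members, list genes called in any contrast, the list genes with the highest and lowest averaged change, and the gene most like each member. Outside this rule, Prkag2 and genes of the families whose shares are given were named, as were some markers. A single further list gene was left out and is not reported here. Alternatives were DESeq2 1.42.0, its size factors or library totals in edgeR, at least 10 counts in every sample, no filter, only the 12 mice of a sex, limma 3.58.1 voomWithQualityWeights, 2 libraries with little slow fibre RNA left out, and each library left out in turn. Correlation tests permuted mice within groups 100000 times.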

Additional observations from a re-analysis of the deposited data

Results flagged for a closer look

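Each gene was checked in each group, which gave 36 sets of 6 values. Of these, 3 held a value far from the rest by Dixon's criterion, which chance alone meets in about 1 of 20 independent sets. The sets share mice and are not independent, so 3 of 36 cannot be weighed against that rate. Slc2a4 was 330.5 CPM in female SMC mouse 21, while the other 5 lay between 361.5 and 371.4. Hk2 in male sham mouse 4 was 289.3 CPM, beside 407.5 to 436.3 in the rest of its group, and Gys1 in that mouse was 332.6 CPM, beside 416.1 to 453.4. Male sham mouse 4 is also a library with little slow fibre RNA, and the part of that in its Hk2 and Gys1 values was not tested.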

How the results depend on the processing

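Members called stayed at 0 under every alternative in each comparison it was run for (the 12 mice of a sex alone only in males and in females), except library totals, which called 1 in females and 1 averaged over the sexes, in both cases Ppp1r3c (log2 fold changes -1.53 and -0.96). That scaling moved the median of all genes to -0.13 in males, -0.15 in females and -0.14 on average, and only 3.65% of its 1861 averaged calls were higher in SMC, beside 169 of 388 with TMM.

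Counts over all genes moved more. DESeq2 called 133 genes in males, 268 in females, 1 for the difference between the sexes and 778 on average, while its size factors in edgeR gave 37 in females. Library totals gave 215 in females and 1861 on average. No filter gave 189 on average, the 12 mice of a sex alone gave 14 in females, and voom with quality weights gave 93 in males, 16 in females and 1420 between the sexes. Without male sham 4 and female sham 7 there were 155 in females and 1268 between the sexes. Leaving out 1 library gave 0 (without female SMC mouse 22, among others) to 147 (without female sham mouse 9) in females, 0 to 78 (without male sham mouse 5) in males, 0 to 1 for the difference, 236 (without male sham mouse 1) to 501 (without female sham mouse 9) on average and 618 to 1086 between the sexes.

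Signs turned for small, uncalled values. With library totals, log2 fold changes in males were -0.098 for Hk1, -0.11 for Hk2, -0.016 for Gys1, -0.013 for Pygm and -0.068 for Phka1. In females they were -0.035 for Gys1 and -0.044 for Pygm, and on average -0.025 for Gys1, -0.12 for Prkaa1 and -0.064 for Gyg. With voom they were -0.00702 for Hk2 in males, 0.074 for Slc2a1 and 0.089 for Phka1 in females, and 0.044 for Gaa on average. Without male sham 4 and female sham 7 they were -0.055 for Hk2 in males, 0.15 for Phka1 in females, -0.00798 for Prkaa1 and 0.097 for Gaa on average. Leaving out 1 library spanned 0 for Hk1 (-0.0021 to 0.074), Hk2 (-0.055 to 0.067), Phka1 (-0.049 to 0.14) and Slc2a4 (-0.074 to 0.016) in males. In females it did so for Hk1 (-0.13 to 0.0069), Phka1 (-0.10 to 0.15), Pygm (-0.00011 to 0.24) and Slc2a1 (-0.13 to 0.082). It also did for Gaa (-0.084 to 0.038) and Prkaa1 (-0.0052 to 0.057) on average and for Phka1 between the sexes (-0.036 to 0.10). The cause was not tested. Lnpep lost its call without the filter (FDR 0.0917) and in 11 of 24 fits without 1 library, and Slc2a3, Stbd1, Ppp1r3d and Ppp1r1a kept theirs between the sexes in all. Ugp2 and Tbc1d1 were called on average with library totals (FDR 0.0264 and 0.0173). Prkag3 was called on average without female sham mouse 7 (FDR 0.0473). Depth put at least 140 reads on every member in every mouse. No paired analysis was run, because the sample labels name no pairs and the replicate numbers only count the libraries. In some experiments of the paper, a sham and an SMC mouse shared housing as a pair. Whether that held for these mice is not stated.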
